A study of Rattus norvegicus with 6 samples.

Results

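Cysteine dioxygenase and its neighbours in cysteine, taurine and glutathione metabolism were followed in GH4C1 cells that carried POU1F1(R271W). The 10 genes are Cdo1, Csad, Got1, Cth, Cbs, Gclc, Gclm, Gss, Slc7a11 and Slc6a6. They were taken by symbol, and every probe set annotated to 1 of these symbols alone was kept, which gave 12 of the 31042 non-control probe sets on the array. The group was built around Cdo1 because of its large increase in this same comparison, so the values of the 10 genes are given as a description and no p-value is attached to them. GH4C1 cells come from a tumour of the rat pituitary and make both growth hormone and prolactin, as somatolactotrophs do. The 3 R271W cultures had received a lentiviral vector in which the PGK promoter drives the mutant factor together with an EGFP reporter, and the 3 control cultures a PGK vector with EGFP alone, as the series' design text states. All 6 cultures were exposed to virus at a multiplicity of infection of 5 with polybrene and then grown for 4 days. The mutant is called dominant negative in the series title. The share of cells that took up either vector is not given in the sources used here.

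Cysteine stands at a branch point. Cells import it mostly as cystine or make it from methionine by transsulfuration, and spend it on proteins, on glutathione, the main thiol antioxidant, or on oxidation to cysteine sulfinate. Cysteine dioxygenase carries out that oxidation, and its product is either decarboxylated on the way to taurine, an abundant osmolyte of excitable tissues and of the pituitary, or transaminated and broken down to pyruvate and sulfite. Glutathione is made from cysteine, glutamate and glycine by glutamate-cysteine ligase and glutathione synthetase, and transcription factor NRF2 is a known activator of several genes on this route.

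Each culture was read on 1 array, with a linear MAS5 signal for every probe set. Array medians were 25.5 to 26.9 in R271W cells and 22.4 to 22.9 in control cells, and the spiked-in hybridisation controls averaged 0.23 more in R271W cells on the log2 scale; the part of either in the results was not tested. The 3 arrays of a group are few, which limits the precision of every value. The labels call the replicates biological but do not say whether they came from separate transductions, so the spread may be partly technical. Prl, the prolactin gene, had signals of 3005.5 to 3347 in R271W cells and 4147 to 4522 in control cells. Gh1, the growth hormone gene, had 5588 to 7287 in R271W cells and 6085 to 6781 in control cells. The summed signal of 16 markers of other pituitary, stromal, endothelial and blood cells was 114 to 136 in R271W cells and 113 to 163 in control cells, and of these only Fshb and Lhb, both gonadotroph genes, passed the signal filter of the fit. Pou1f1 itself, read by a pair of probe sets, had 1645 to 1898 in R271W cells and 2204 to 2399 in control cells; whether these probe sets also read the vector's transcript is not stated in the sources. In RNA from a whole culture, fewer cells of a kind and less RNA per cell cannot be told apart.

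Cdo1 was the member with by far the largest difference. It encodes cysteine dioxygenase, the enzyme that commits cysteine to oxidation. Its only probe set had signals of 1067, 934 and 898 in R271W cells, against 141, 173 and 164 in control cells. The lowest R271W array stood far above the highest control array, and the spread within each group was small beside the gap. The means were 966 ± 88.9 in R271W cells and 159 ± 16.7 in control cells (SD, n = 3 each), which is 6.07-fold as a ratio of geometric means and 2.60 as a log2 fold change (SE 0.10). Among the 18625 probe sets that passed the signal filter it ranked 16 by increase. Of the 8252 with a mean control signal of at least 100, a cutoff that its control mean of 159 passes, Cdo1 had the largest increase. The next stood at 2.30 on the log2 scale. Since Cdo1 was chosen for its increase, both ranks only describe it, and the second depends on the cutoff. Without any 1 array the log2 fold change of Cdo1 stayed between 2.51 and 2.66.

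**Figure D1:**
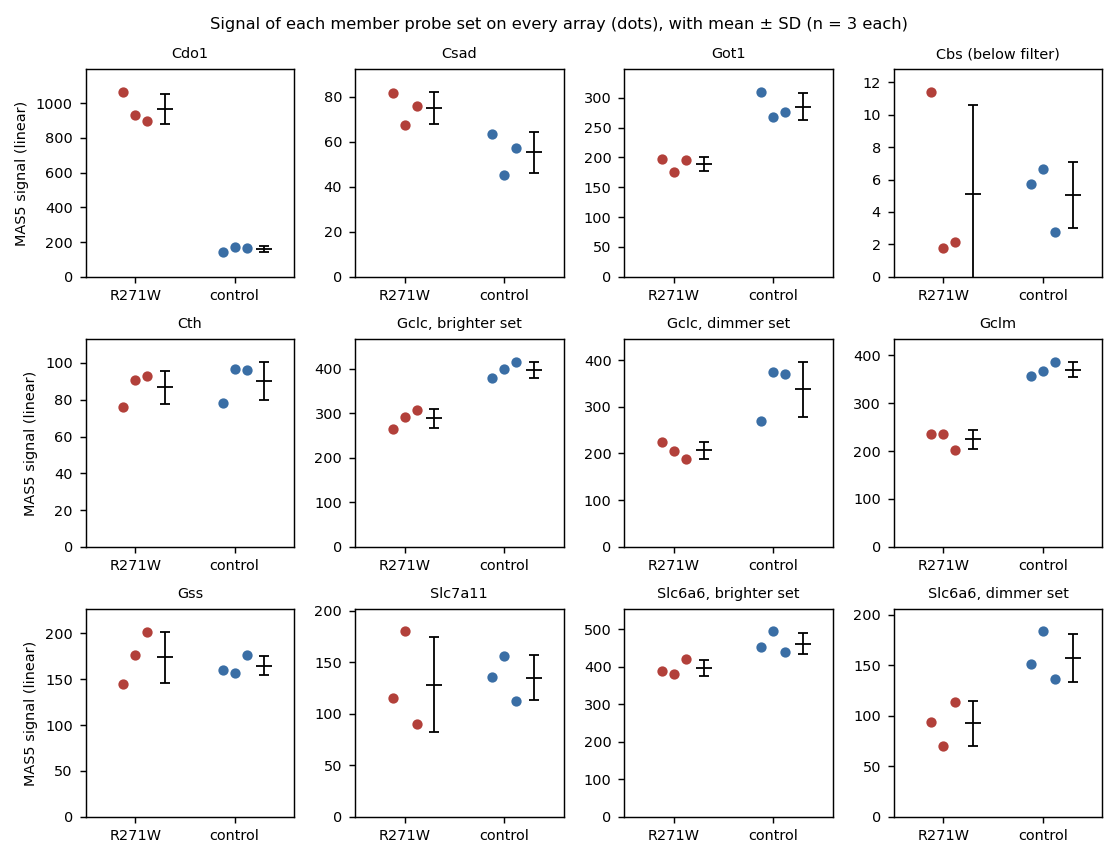
MAS5 signal (linear axis from 0) of each of the 12 probe sets of the 10 genes, with the 3 R271W arrays as red dots and the 3 control arrays as blue dots, and the mean ± SD beside them. Cdo1 stands far higher in R271W cells, Got1, Gclc, Gclm and Slc6a6 stand lower without overlap, and Cth, Gss and Slc7a11 overlap; the lower SD bar of Cbs in R271W cells runs below 0 and is not drawn there.

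A probe set is called where limma, fitted on log2 signals across the whole array, gave an adjusted p under 0.05. Of the 12 member probe sets 11, from 9 genes, passed the filter, and of these 1 was called higher and 5 lower. The 5 belong to 4 genes, as Gclc counts for 2 of them. Among all 18625 tested probe sets 8.57% were called higher and 7.22% lower, 15.8% in all. Groups did not overlap, with R271W above control, for 2 of the 11, against 19.7% of all, and with R271W below control for 6 of the 11, against 14.2% of all; in either direction it was 8 of the 11, against 33.9% of all. Since the genes were gathered with this comparison known, nothing is read from these shares. The median log2 fold change was -0.22 over the 11 and 0.07 over all tested probe sets. The overall balance depends on scaling: the share of calls that were higher was 54.3% as deposited, 50.0% with quantile normalization, 36.9% with 75th percentile centring and 18.9% with median centring, which moves each log2 fold change by -0.20. Centring on the 75th percentile moves each by -0.08. As both centrings lower every log2 fold change, the members called lower could not change direction under them. With quantile normalization, which could have turned them, they kept that direction.

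Csad encodes cysteine sulfinate decarboxylase, which makes hypotaurine, the precursor of taurine. Csad signals were 81.9, 67.6 and 76.1 in R271W cells, against 63.5, 45.4 and 57.3 in control cells. The groups did not overlap, but the lowest R271W array and the highest control array lay close together. The log2 fold change was 0.45 (SE 0.20), and it was not called.

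Got1 encodes the cytosolic aspartate aminotransferase, which besides its work on aspartate transaminates cysteine sulfinate. Its signals were 197, 175 and 195 in R271W cells, against 310.2, 267 and 277 in control cells. All 3 R271W arrays were lower than the lowest control. The mean was 189 ± 12.2 in R271W cells and 285 ± 22.5 in control cells (SD, n = 3 each). On the log2 scale the fold change was -0.59 (SE 0.11).

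**Figure D2:**
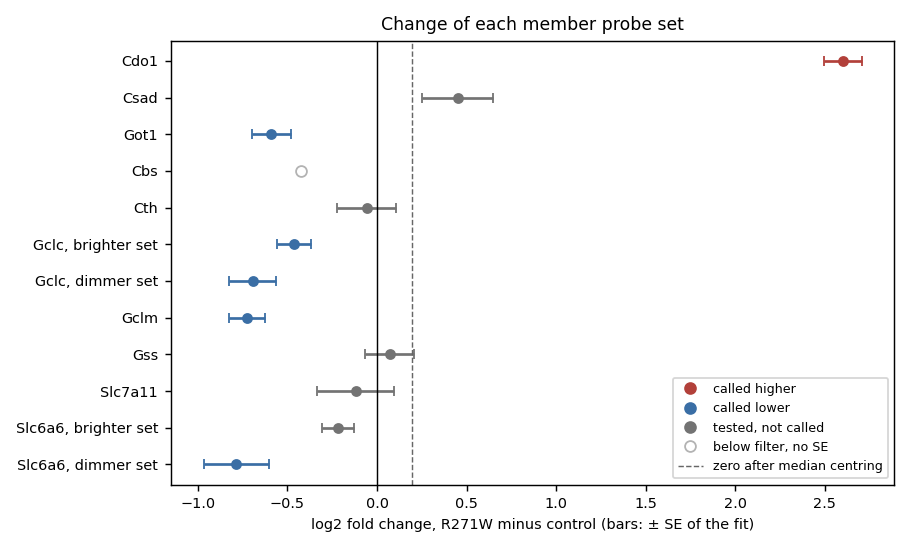
Log2 fold change (R271W minus control) of each of the 12 probe sets, with bars of ± SE from the fit across all tested probe sets and no bar for Cbs, which lay below the filter. Cdo1 stands alone at 2.60, 5 probe sets called lower lie between -0.47 and -0.79, and the dashed line marks where 0 would fall if arrays were centred on their medians.

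Neither gene of transsulfuration was called. Cbs, which encodes cystathionine beta-synthase, its first enzyme, was near the bottom of the signal range. Its signals were 11.4, 1.79 and 2.17 in R271W cells, against 5.75, 6.66 and 2.78 in control cells, so it lay below the filter and was not tested. Cth encodes cystathionine gamma-lyase, which releases the cysteine. Cth signals were 76.2, 90.8 and 93.1 in R271W cells, against 78.2, 96.6 and 96.1 in control cells. The groups overlapped almost fully, and the log2 fold change was -0.06 (SE 0.16).

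Glutamate-cysteine ligase, which sets the pace of glutathione synthesis, had lower signals for both of its subunits. Gclc encodes the catalytic subunit and was read by a brighter and a dimmer probe set. The brighter one had signals of 266, 292 and 308 in R271W cells, against 380, 399 and 416 in control cells. The dimmer one had 226, 206 and 189 in R271W cells, against 269, 374 and 370 in control cells. Neither overlapped between groups, and control replicate 1 was the lowest control on each. The log2 fold changes were -0.47 (SE 0.09) and -0.69 (SE 0.13), and both sets were called lower, though not without the intensity trend of the fit. Gclm encodes the modifier subunit, which raises the affinity of the enzyme for its substrate. It had signals of 237, 235 and 202 in R271W cells, against 357, 367 and 387 in control cells. Again no arrays overlapped, and the mean was 225 ± 19.7 in R271W cells and 371 ± 15.3 in control cells (SD, n = 3 each), which gave a log2 fold change of -0.73 (SE 0.10).

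Gss encodes glutathione synthetase, which adds glycine in the last step. Gss signals were 145, 176 and 201 in R271W cells, against 160, 157 and 177 in control cells. The R271W arrays spanned the whole control range, and the log2 fold change was 0.07 (SE 0.14), which turned to -0.13 under median centring and to -0.01 under centring on the 75th percentile. The change of Gss was not tested against those of the ligase genes.

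The stretches before the gene starts of the members called lower were read from RefSeq promoter sequences of the GRCr8 rat assembly, which held 9 of the 10 members, without Cdo1. The 250 bases before the start were searched on both strands for the core of the antioxidant response element that NRF2 binds (TGACNNNGC), the core of the element that ATF4 binds with C/EBP partners (TGATGNAA) and a core of the POU1F1 consensus (TATNCAT). The antioxidant core was found in 3 of the 9 members (Got1, Gclm and Slc6a6) and in 10.1% of 33469 promoters of the same length. The ATF4 core was found in 1 of the 9 (Got1) and in 3.4% of all, and the POU1F1 core in 0 of the 9 and in 8.73% of all. The stretches of the 9 members were 55.2% (Gss) to 76.0% (Csad) G and C, against a median of 51.2% over all promoters. The shares were not adjusted for this difference, so nothing is read from them. Such matches describe the letters and show no binding. The members called lower are printed in full because they moved in the same direction. Gclm lies at chr2:213031885-213032134 on the plus strand, Got1 at chr1:252329872-252330121 on the minus strand, Slc6a6 at chr4:125752252-125752501 on the plus strand and Gclc at chr8:87510226-87510475 on the plus strand. Each sequence runs 5′ to 3′ towards the gene, and capitals mark the matches, all of which read on the opposite strand.
Gclm: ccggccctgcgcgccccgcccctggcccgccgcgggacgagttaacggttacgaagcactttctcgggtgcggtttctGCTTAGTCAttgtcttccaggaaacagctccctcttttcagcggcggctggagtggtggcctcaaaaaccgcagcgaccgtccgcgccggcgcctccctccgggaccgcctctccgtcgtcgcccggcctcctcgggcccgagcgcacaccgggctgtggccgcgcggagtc
Got1: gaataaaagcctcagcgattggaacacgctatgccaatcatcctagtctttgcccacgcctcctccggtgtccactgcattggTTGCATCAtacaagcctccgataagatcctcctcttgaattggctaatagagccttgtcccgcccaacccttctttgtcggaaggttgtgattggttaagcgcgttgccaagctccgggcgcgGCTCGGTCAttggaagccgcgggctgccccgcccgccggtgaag
Slc6a6: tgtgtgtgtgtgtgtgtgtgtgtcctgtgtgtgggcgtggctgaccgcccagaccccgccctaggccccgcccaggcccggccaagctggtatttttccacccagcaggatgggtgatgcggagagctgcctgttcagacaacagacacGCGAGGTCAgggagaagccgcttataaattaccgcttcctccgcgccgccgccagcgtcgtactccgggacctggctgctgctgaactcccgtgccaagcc
Gclc: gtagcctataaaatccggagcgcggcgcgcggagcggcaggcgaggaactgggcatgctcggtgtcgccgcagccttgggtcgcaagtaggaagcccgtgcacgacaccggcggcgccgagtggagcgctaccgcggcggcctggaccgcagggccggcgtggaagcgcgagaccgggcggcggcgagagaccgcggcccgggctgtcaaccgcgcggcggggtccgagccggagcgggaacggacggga
The antioxidant match begins 172 bases before the start in Gclm, 44 bases before it in Got1 and 101 bases before it in Slc6a6. The ATF4 match of Got1 begins 167 bases before the start. The Gclc stretch, which is 74.8% G and C, holds none of these letters. Sequence further upstream was not searched for any gene, so a missing match covers only the 250 bases.

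Import was read through a cystine and a taurine carrier. Slc7a11 encodes the light chain of the cystine-glutamate exchanger. It had signals of 115, 179.8 and 89.9 in R271W cells, against 135, 156 and 113 in control cells. These were the most scattered values of the tested members, with an SD of 0.51 on the log2 scale among R271W arrays, and the groups overlapped. The log2 fold change of -0.12 (SE 0.21) turned to 0.11 without R271W replicate 3.

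Slc6a6 encodes the sodium-coupled taurine transporter, whose antioxidant match is printed above. Its dimmer probe set had signals of 93.4, 69.8 and 114 in R271W cells, against 152, 183 and 137 in control cells. Its brighter probe set had 389, 379 and 421 in R271W cells, against 452, 494 and 438 in control cells. On both, no R271W array reached the lowest control. The sizes differed, with log2 fold changes of -0.79 (SE 0.18) on the dimmer set, which was called lower, and -0.22 (SE 0.09) on the brighter, which was called only under median or 75th percentile centring. The call of the dimmer set ended without control replicate 2, where the log2 fold change was -0.67, and without the intensity trend of the fit.

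**Figure D3:**
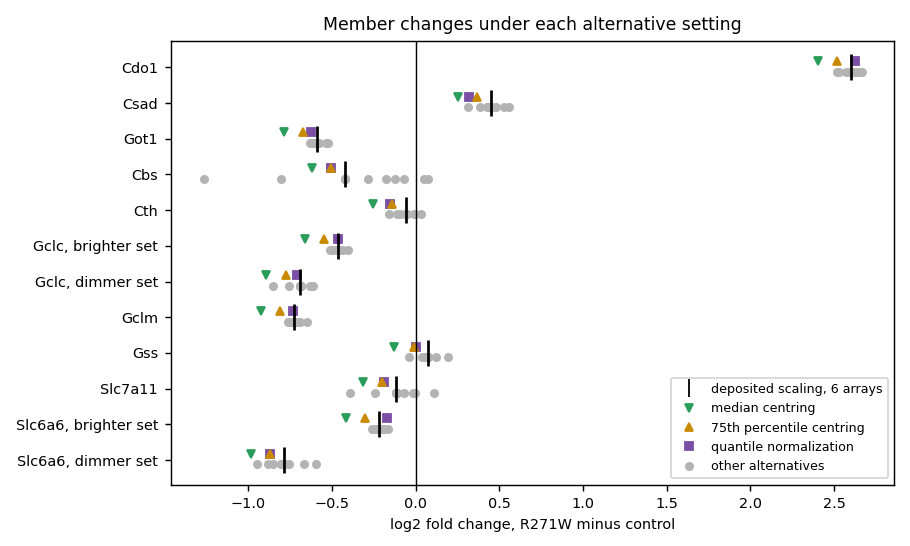
Log2 fold change of each member probe set with the deposited scaling (black bar), under 3 other scalings (coloured symbols) and under the remaining alternatives (grey dots). Cdo1 stays between 2.40 and 2.66 and Gclm between -0.92 and -0.65, while the values of Cbs, Cth, Gss and Slc7a11 lie on both sides of 0.

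The profile of Cdo1 across the 6 arrays was set beside those of other named probe sets, each taken relative to its control mean. The nearest were Ggnbp1 (root mean square distance 0.35 on the log2 scale), Syt16 (0.41), Hepacam2 (0.48), Dclk1 (0.52) and Emc9 (0.56). Hepacam2, for example, had 741, 779 and 616 in R271W cells, against 159, 199 and 199.5 in control cells. Ggnbp1, Syt16 and Emc9 had control means of 7.1, 10.1 and 10.7, under the filter signal of 11.2, so they passed only through their R271W signals.

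The wider pathway was described with 133 further genes in 10 lists, grouped by role. Of these, 126 had a probe set of their own and 106 passed the filter, with the brightest probe set standing for the gene. By limma, 10 were called higher and 18 lower, which is 26.4% of them, beside 18.9% of the 10143 genes tested (9.87% higher and 8.98% lower). The median log2 fold change was 0.01 over the 106 genes and 0.06 over all genes. Under median centring 6 were called higher and 32 lower, and without the intensity trend 6 and 3. Leaving out control replicate 2 left 8 higher and 12 lower.

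**Figure D4:**
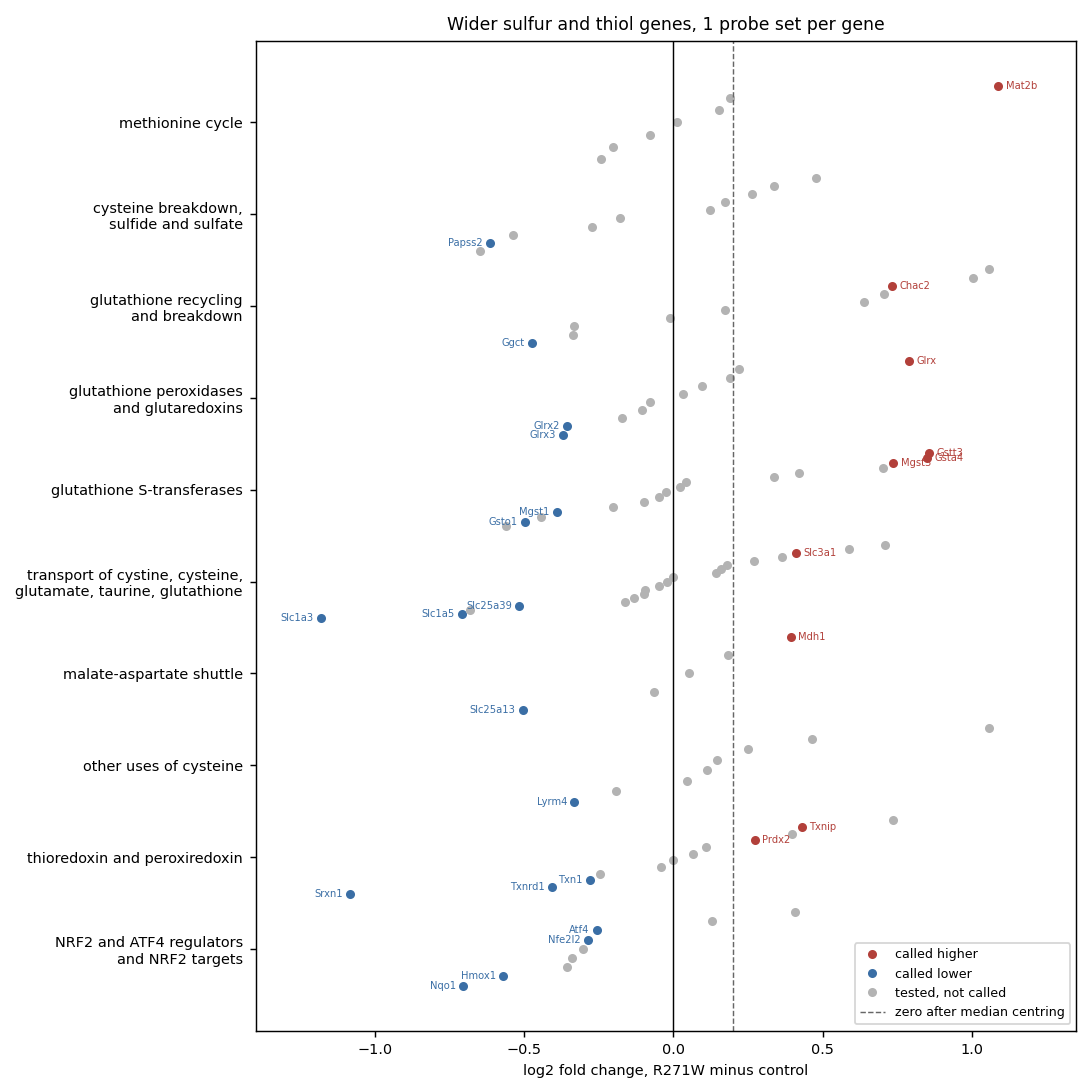
Log2 fold change (R271W minus control) of the 106 tested genes of the wider lists, 1 dot per gene, ordered by size within each list; red dots were called higher, blue dots lower and grey dots not called. Slc1a3, Slc1a5, Srxn1, Nqo1 and Hmox1 lie at the low end of their lists and Mat2b, Glrx, Gsta4 and Gstt3 at the high end. The dashed line marks where 0 would fall under median centring.

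The NRF2 targets Nqo1 and Hmox1 were called lower, as were the regulators Nfe2l2 and Atf4. Genes of the other lists were not sorted by whether NRF2 acts on them. In the list of NRF2 and ATF4 regulators and NRF2 targets, 4 of 9 tested genes were called lower and 0 higher, with a median of -0.30, and without the intensity trend none of the 4 was called (adjusted p = 0.0539 for Nqo1, 0.105 for Hmox1, 0.133 for Nfe2l2 and 0.165 for Atf4). Nqo1, a quinone reductase, fell to 335 ± 55.4 in R271W cells, against 540.2 ± 15.3 in control cells (log2 -0.70, limma adjusted p = 0.000956). Hmox1, the inducible heme oxygenase, fell to 196 ± 33.6 in R271W cells, against 289 ± 34.7 in control cells (log2 -0.57, adjusted p = 0.0112). Nfe2l2, which encodes NRF2 itself, was lower by a smaller amount (log2 -0.29, adjusted p = 0.0167), as was Atf4, a stress-response factor (log2 -0.26, adjusted p = 0.0156). Keap1, which encodes the protein that holds NRF2 back, had a log2 fold change of 0.13 (adjusted p = 0.529) on its brighter probe set and -0.23 on the other. The rest of the list was not called. Blvrb, another listed target, had -0.30 (adjusted p = 0.0809) and the regulator Maff 0.41 (0.155). The regulators Mafg and Mafk had -0.34 (0.121) and -0.36 (0.154). The calls of Nfe2l2 and Atf4 ended with quantile normalization (adjusted p = 0.0743 and 0.0713). They also ended without some single arrays: for Nfe2l2 without R271W replicate 1 (0.0524) or 2 (0.0566) or control replicate 2 (0.0769) or 3 (0.0573), and for Atf4 without R271W replicate 1 (0.052) or control replicate 1 (0.0639) or 2 (0.0794). That of Hmox1 ended without R271W replicate 2 (0.0539) or control replicate 3 (0.0591), and the list kept 2 called genes in place of 4 without R271W replicate 1 or 2 or control replicate 2 or 3.

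Thioredoxin genes, which form the other main thiol system, included 3 called lower and 2 higher of 12 tested. Srxn1 encodes sulfiredoxin, which repairs over-oxidised peroxiredoxins. It had signals of 254, 243 and 302 in R271W cells, against 625, 488 and 582 in control cells. No arrays overlapped, and Srxn1 fell by 1.08 on the log2 scale (SE 0.11, adjusted p = 3.82e-05), with another probe set at -0.77. Txnrd1, the cytosolic thioredoxin reductase, fell by 0.41 (adjusted p = 0.00185) and by 0.46 on its other probe set. Without the intensity trend Txnrd1 (0.0786), Txn1 (0.172) and Prdx2 (0.215) were not called. Txn1, thioredoxin itself, fell by 0.28 (adjusted p = 0.0148), a call that ended without R271W replicate 1 (0.0618) or 2 (0.0525) or control replicate 1 (0.0688) or 3 (0.0539). Prdx2, a peroxiredoxin, was higher by 0.27 (adjusted p = 0.0336), but not under median centring (0.07, adjusted p = 0.621) or 75th percentile centring (0.189), nor without R271W replicate 3 (0.0698) or control replicate 1 (0.0658), 2 (0.0722) or 3 (0.137). The fifth called gene was Txnip, an inhibitor of thioredoxin (log2 0.43, adjusted p = 0.0421), which is named after its value was seen.

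Enzymes that use or break down glutathione moved in both directions. Among 16 glutathione S-transferase genes, which conjugate glutathione to toxic compounds, 3 were called higher and 2 lower. Gsta4, which acts on lipid peroxidation products, rose to 1657 ± 78.5 in R271W cells, against 922 ± 94.3 in control cells (log2 0.85, adjusted p = 2.05e-05). Mgst3 rose by 0.74 and Gstt3 by 0.86. Gsto1, an omega-class enzyme, fell to 1237 ± 19.7 in R271W cells, against 1748 ± 16.4 in control cells (log2 -0.50, adjusted p = 0.000191). Mgst1, named after its value was seen, was at -0.39 (adjusted p = 0.0052). These genes have close paralogs, and whether a probe set also reads one of them was not tested. Gstp1, a pi-class enzyme, had 4340 in R271W cells and 4206 in control cells and a log2 fold change of 0.04 (adjusted p = 0.769).

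Among 10 genes of peroxidases, glutaredoxins and glyoxalases, 1 was called higher and 2 lower. Glrx, the cytosolic glutaredoxin, rose to 333 ± 10.6 in R271W cells, against 194 ± 29.1 in control cells (log2 0.79, adjusted p = 0.000505), and by 0.66 on its other probe set. Glrx2, a mitochondrial form, fell by 0.36 (0.64 on its other probe set), and Glrx3 fell by 0.37 on the log2 scale (adjusted p = 0.00918), a call that ended under quantile normalization (0.053) or without control replicate 2 (0.0547). Without the intensity trend neither Glrx2 (0.111) nor Glrx3 (0.129) was called. The peroxidase genes Gpx1 and Gpx4 had log2 fold changes of -0.17 and 0.03 that were not called. Of 10 genes of glutathione recycling and breakdown, Chac2, which cleaves glutathione in the cytosol, rose by 0.73 (adjusted p = 0.0034). Ggct, which releases oxoproline from gamma-glutamyl dipeptides, fell by 0.47 (adjusted p = 0.0179), a call that ended without R271W replicate 2 (0.0758), control replicate 2 (0.0918) or the intensity trend (0.0862). The median of that list was 0.40, with several dim genes at high values that were not called.

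The remaining lists add the supply of methionine, sulfate and amino acids. Of 7 methionine cycle genes, Mat2b, the regulatory subunit of methionine adenosyltransferase, was the only one called on the probe set that stands for the gene. It had signals of 562, 513 and 475 in R271W cells, against 231, 258 and 239.7 in control cells. It rose by 1.09 on the log2 scale (SE 0.10, adjusted p = 1.11e-05), while Mat2a, the catalytic subunit, had -0.24 (adjusted p = 0.0633). Mat2a was called lower on another probe set (-0.60, adjusted p = 0.00199), and a dim one read -1.57 (0.0572). In the list of cysteine breakdown, sulfide and sulfate genes, 1 of 10 was called, Papss2, an enzyme that makes the sulfate donor for sulfation. Papss2 fell by 0.61 (adjusted p = 0.00925), with -0.44 and overlapping arrays on its other probe set, and its call ended without control replicate 2 (0.0535) or the intensity trend (0.0712). Ado, the only other thiol dioxygenase on the list, was dim at 18.8 in R271W cells and 12.0 in control cells and was not called. The sulfite oxidase gene Suox had 107 in R271W cells and 84.7 in control cells, a log2 fold change of 0.34 that was not called (adjusted p = 0.146).

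Of 19 transporter genes 1 was called higher and 3 lower. Slc1a3, a glial-type glutamate and aspartate transporter, had 51.6, 61.0 and 47.2 in R271W cells, against 110, 122 and 129.6 in control cells. It fell by 1.18 on the log2 scale (SE 0.17, adjusted p = 0.000424), and its 2 other probe sets lay below the filter. Slc1a5, a carrier of neutral amino acids such as glutamine, fell by 0.71 (adjusted p = 0.0006), a call that ended without the intensity trend (0.0545), as did that of Slc25a39 (0.0593) and of Slc3a1 (0.131). Slc25a39, a carrier for glutathione into mitochondria, fell by 0.52 (adjusted p = 0.000835) on its bright probe set, but a dim one read 0.08 and the mean of both was not called (adjusted p = 0.151). Slc3a1, the heavy chain of a cystine carrier, stood 0.41 higher (adjusted p = 0.0416) and lost the call under quantile normalization (0.0724), median centring (0.301), 75th percentile centring (0.0951) and without R271W replicate 1 (0.0648), 2 (0.14) or 3 (0.0635) or control replicate 1 (0.12) or 2 (0.149). Slc3a2, the heavy chain that pairs with Slc7a11, had -0.10 (adjusted p = 0.506). Slc16a6, which can export taurine, had -0.68 (adjusted p = 0.0682), while its other probe set was called lower (-0.90, adjusted p = 0.0164), without overlap on either. The products of the 5 Lrrc8 genes form the volume-regulated channel that releases taurine. On the probe sets that stand for these genes, log2 fold changes were -0.16 to 0.71 and none was called. Other Lrrc8a sets read 2.78, without overlap, and 1.24, but were dim, below the filter and not tested. Another Lrrc8c set read 0.006 and was not called.

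Genes that share the aspartate chemistry of Got1 differed in both directions. Of 5 malate-aspartate shuttle genes, Mdh1, the cytosolic malate dehydrogenase, was higher (log2 0.39, adjusted p = 0.00185, and 0.63 on its other probe set), though not under median centring (0.19, adjusted p = 0.102) or without the intensity trend (0.0812). Slc25a13, a mitochondrial aspartate-glutamate carrier, was lower (log2 -0.50, adjusted p = 0.0101), with -0.18 on its other probe set. Its call ended without control replicate 3 (0.0548), without the intensity trend (0.0714) and for the mean over both probe sets (0.0685). Got2, the mitochondrial counterpart of Got1, had a log2 fold change of -0.18 (adjusted p = 0.165). Among 8 genes for other uses of cysteine, such as cysteinyl-tRNA and iron-sulfur clusters, 1 was called on the probe set that stands for the gene. That gene was Lyrm4, a partner of the cysteine desulfurase (log2 -0.33, adjusted p = 0.0354). Its call ended without R271W replicate 1 (0.0969) or 2 (0.12) or control replicate 2 (0.104) or 3 (0.13), and without the intensity trend (0.14). Cars1, which encodes cysteinyl-tRNA synthetase, had 0.25 (adjusted p = 0.0993) on the set that stands for it. Another Cars1 probe set was called higher (0.36, adjusted p = 0.0433), and its remaining sets, at 0.08 and 0.53, were not called.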

How the data were processed

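RNA from 6 GH4C1 cultures, 3 with POU1F1(R271W) and 3 controls, was made into biotinylated cRNA for Affymetrix rat arrays (labels' protocols). Each deposited number is an intensity: a linear MAS5 signal for 1 probe set, according to the submitters' processing notes, which name no version. Detection calls were not used. All arrays share the same trimmed mean, so bright probe sets set the scale. The median SD of log2 signal was 0.11 for tested probe sets with a mean signal of at least 200 and 0.285 below that.

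Of 31042 non-control probe sets, 20826 had 1 symbol, 436 several and 9780 were not in the annotation table and are unnamed here. Symbols were updated by Entrez ID through RefSeq (GRCr8). The log2 signals, not rescaled, were fitted with limma 3.58.1 in R 4.3.3 (two-sided test on group over 6 arrays, lmFit and eBayes with trend). The filter kept the 18625 probe sets whose mean log2 signal reached the 40th percentile, which is a signal of 11.2. P-values were Benjamini-Hochberg adjusted over these, and called means an adjusted p under 0.05. A log2 fold change is the difference of mean log2 signals, R271W minus control. The fit was also run on simulated data whose changes were larger than most of those reported here, so that run says nothing about the smaller ones. Figures were drawn with matplotlib 3.10.9.

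The members, lists, tests and naming rule were chosen with earlier results of these data known. Named were all members, up to 4 called genes with the smallest p per list, and the 5 probe sets with profiles nearest to Cdo1; values of some uncalled genes were added for context after they were seen. Alternatives were 3 other scalings, 2 other filters, a floor or an offset at 3.72, 2 other variance models, array weights, a replicate block, the mean over probe sets and leaving out each array.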

Additional observations from a re-analysis of the deposited data

How the results depend on the processing

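Of 12 member probe sets, Cdo1, Got1 and Gclm kept their call under all 17 alternatives. Without the intensity trend, both Gclc probe sets and the dimmer Slc6a6 probe set were not called, which left 2 members lower, and 3 of the wider pathway genes lower and 6 higher, while 634 probe sets of the whole array were higher and 431 lower. Under median centring the log2 fold change of Cdo1 was 2.40, the wider pathway had 6 genes higher and 32 lower, and the whole array 730 higher and 3132 lower. Leaving out 1 array gave 999 (without R271W replicate 2) to 1350 higher and 947 to 1330 lower probe sets on the whole array, 1 higher and 4 to 5 lower among members, 7 to 12 higher and 12 to 21 lower among wider pathway genes, and 2.51 to 2.66 for Cdo1. The count of lower pathway genes was 12 without control replicate 2.

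Deviations of same-numbered arrays from their group means correlated at -0.002, 0.01 and -0.02 across probe sets, so no shared shift by replicate number was seen. The labels do not say whether the numbers pair cultures, and these correlations cannot settle it. With a replicate block 1336 probe sets were higher and 1143 lower, 1 member higher and 5 lower, and 8 pathway genes higher and 17 lower. Among 26 pathway genes named by the rule, none reversed its direction and 9 kept their call under every alternative run (Chac2, Glrx, Gsta4, Gsto1, Gstt3, Mat2b, Mgst3, Slc1a3 and Srxn1). The other 17 lost it without the intensity trend, at adjusted p of 0.0539 to 0.215, and 11 of them also without some single array. Causes were not tested. Signals near the filter are poorly set, which touches Cbs, Ado and other dim genes.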
